A study of Mus musculus with 11 samples.

Results

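The genes described here are 10 imprinted transcripts with roles in growth, chosen by symbol from both deposited count tables: Rian, Meg3, Mirg, Dlk1, H19, Peg3, Plagl1, Cdkn1c, Grb10 and Ndn. All 10 were among the 24421 symbols of the tables. The list was set with earlier results of these data known. An imprinted gene is transcribed mainly from the chromosome inherited from one parent, as set by DNA methylation laid down in the germ line at control regions of the locus. Many such genes act on fetal growth, those expressed from the paternal copy tending to favour it and those expressed from the maternal copy tending to restrain it. Many are expressed less after birth. Counts per symbol add up both parental copies, so the values below say nothing of which copy was transcribed.

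RNA came from resting hindlimb muscle of mice that carry the tamoxifen-inducible recombinase Hic1CreERT2 and a tdTomato reporter. Mice labelled WTlFlox have 1 Ctnnb1 allele whose exon 3 is flanked by loxP sites, and mice labelled WT have none. Ctnnb1 encodes beta-catenin, and loss of exon 3 removes the sites through which the protein is marked for degradation. The Cre is driven by Hic1, a gene of mesenchymal progenitors. Which cells of the muscle underwent recombination was not tested. Progenitors were sorted as CD45- CD31- Sca1+ tdTomato+ alpha7- cells. They comprised 3 WTlFlox animals, 74A1 (female), 72B7 and 74A3 (males), and 3 WT animals, 74A2 (female), 72B8 and 73C3 (males). Whole lysate of the tibialis anterior came from 3 WTlFlox males, 71B3, 71B4 and 71B5, and 2 WT males, 73A5 and 73A7. Progenitors were taken 14 days after tamoxifen except 74A3, which is labelled day 56 as all lysates are. The mice's age is not given in the sources used here.

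Library totals ran from 13119843 to 16805238 counts in progenitors and from 16892158 to 19449227 in muscle. Xist and Y-linked counts matched the deposited sex in 11 of 11 libraries. The 10 mesenchymal progenitor markers summed to 32439 to 56418 CPM (counts scaled to a common library size) over the 6 progenitor libraries, and 10 fast myofibre markers to 20.7 to 136 CPM. In the 5 lysates the same lists summed to 525 to 1133 and 117459 to 203409 CPM. The deposited sample table names the lysates as progenitors too, and these sums match the labels instead. Ctnnb1 averaged 402 ± 23.1 CPM in WTlFlox and 482 ± 38.3 CPM in WT progenitors (SD, n = 3 each), and 297 ± 11.7 CPM in WTlFlox and 297 ± 37.6 CPM in WT muscle, with no call in either material. Loss of 1 exon is not tested by counts summed over a gene. Hic1 was not called in either material.

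Rian, Meg3, Mirg and Dlk1 share the Dlk1-Dio3 domain of mouse chromosome 12 (GRCm38, plus strand). Dlk1 lies at chr12:109452823-109463336, Meg3 at chr12:109541001-109571726, Rian at chr12:109603940-109661716 and Mirg at chr12:109729764-109749460. Dlk1 is expressed from the paternal copy and encodes a membrane protein with EGF repeats that holds back adipocyte differentiation. The other members of the domain are long noncoding RNAs of the maternal copy. They follow one another in the same orientation, Rian starting 32.2 kb after the end of Meg3, and are thought to arise largely from transcription that starts at Meg3. Rian is the host of small nucleolar RNAs of the box C/D class and of a few microRNAs, and Mirg is the host of a large microRNA cluster. H19 (chr7:142575529-142578143, minus strand) is a maternally expressed noncoding RNA beside Igf2, and Cdkn1c (chr7:143458339-143461050, minus strand) lies 880 kb away on the same chromosome.

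The sequences around the starts of Rian and Meg3 are shown because these transcripts carried the largest muscle differences of the list. Each window runs from 250 bases before to 50 after the start in the RefSeq table (GRCm38.p6, plus strand), with CG dinucleotides, the targets of imprint methylation, in capitals. Rian is chr12:109603695-109603994 and Meg3 is chr12:109540746-109541045.
Rian: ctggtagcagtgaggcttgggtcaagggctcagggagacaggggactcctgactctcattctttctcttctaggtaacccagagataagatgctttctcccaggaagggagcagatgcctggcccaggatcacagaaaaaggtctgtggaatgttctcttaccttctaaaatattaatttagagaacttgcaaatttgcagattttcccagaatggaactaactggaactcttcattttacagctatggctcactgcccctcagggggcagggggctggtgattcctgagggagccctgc
Meg3: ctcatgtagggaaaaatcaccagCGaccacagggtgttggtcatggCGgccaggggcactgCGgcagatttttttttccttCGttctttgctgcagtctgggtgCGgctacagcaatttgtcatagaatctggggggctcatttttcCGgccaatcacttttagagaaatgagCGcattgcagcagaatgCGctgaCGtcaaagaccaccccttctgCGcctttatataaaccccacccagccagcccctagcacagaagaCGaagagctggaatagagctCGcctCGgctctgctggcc
The Meg3 window held 13 CG dinucleotides and the Rian window 0. Over 32851 RefSeq promoters of 300 bases the median was 7, and 5.43% held 0. A second Meg3 start in the table (chr12:109545148-109545447) had 1. Neither the TCF/LEF motif of Wnt signalling (CTTTGAA or CTTTGAT, both strands, matched in 8.65% of all promoters) nor the MEF2 consensus (0.557%) was present in any window of the 8 genes with a table entry. H19 and Cdkn1c had no entry. That describes these windows only.

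Mature microRNAs that lie within the hosts are printed with the seed (bases 2 to 8, which pair with targets) in capitals, from RefSeq. They show what else the Rian, Meg3 and H19 loci encode. The Rian locus held 6 mature sequences with 6 different seeds.
miR-341-5p: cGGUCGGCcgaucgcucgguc
miR-341-3p: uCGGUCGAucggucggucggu
miR-1188-5p: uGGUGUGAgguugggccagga
miR-1188-3p: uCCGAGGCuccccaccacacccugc
miR-370-5p: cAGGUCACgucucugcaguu
miR-370-3p: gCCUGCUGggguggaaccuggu
Within Meg3 there were 3, again each with its own seed.
miR-1906: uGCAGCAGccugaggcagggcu
miR-770-5p: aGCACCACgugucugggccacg
miR-770-3p: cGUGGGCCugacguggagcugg
H19 contains the hairpin of miR-675.
miR-675-5p: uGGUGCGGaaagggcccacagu
miR-675-3p: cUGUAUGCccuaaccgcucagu
Mirg held 26 mature sequences with 25 seeds, and the seed GGUUGCC was shared by 2 of them.
miR-453: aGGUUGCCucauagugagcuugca
miR-496a-5p: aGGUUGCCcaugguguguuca
The libraries were made from poly(A) RNA and do not measure microRNAs. Between Dlk1 and Dio3 the tables list 65 small RNA genes, which had 9 counts in all over the 6 progenitor libraries and 1 over the 5 lysates. Reads are not stated to have been counted by strand. Meg3, Mirg, H19, Plagl1, Cdkn1c and Ndn each overlap an annotated gene on the opposite strand, whose reads cannot be told apart from theirs if strand was not used, and Rian, Dlk1, Peg3 and Grb10 overlap none.

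In whole muscle Rian was the member that differed between genotypes, being about 4.32-fold lower in WTlFlox mice. It stood at 5.06, 5.76 and 6.70 CPM in WTlFlox muscle (96, 108 and 140 counts), against 27.4 and 23.2 CPM in WT muscle (458 and 362 counts). The highest WTlFlox value was well under the lowest WT value. On the log2 scale the fold change was -2.11 (SE 0.17), with an adjusted p of 0.00546 in edgeR's quasi-likelihood test, which called 92 of 12654 genes in muscle, or 0.727% (0.514% higher and 0.213% lower). As the list was chosen with earlier results of these data known, its count of calls is a description. Rian was 1 of 9 tested members called, with 0 higher. It passed under each alternative tool, filter and scaling and without any other single library, but not without WTlFlox animal 71B5, where edgeR called 0 genes and Rian stood at -2.22 (adjusted p = 0.0532, the smallest of all genes). In that fit 1023 genes had an unadjusted p under 0.05. DESeq2, run on all 5 lysates, called 267.

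Meg3, the noncoding RNA upstream of Rian, stood at 5.22, 4.48 and 4.88 CPM in WTlFlox muscle, against 6.70 and 16.0 CPM in WT muscle. The groups did not overlap, but the lower WT value lay closer to the WTlFlox values than to the other WT value. The log2 fold change of -1.22 (SE 0.33) did not pass in edgeR (adjusted p = 0.237). It passed with DESeq2 (adjusted p = 0.0444) and, in edgeR, without WT animal 73A5 (-1.72, adjusted p = 0.00247). Without the other WT animal, 73A7, it was -0.47 and did not pass. Mirg had 1, 3 and 10 counts in WTlFlox and 8 and 7 counts in WT muscle, too few to be tested, and its groups overlapped. Added together, Rian, Meg3 and Mirg came to 10.9 ± 0.978 CPM in WTlFlox (SD, n = 3) and 37.1 ± 3.58 CPM in WT muscle (n = 2). An exact two-sided permutation test of that sum on the log scale gave p = 0.1, the smallest that 3 against 2 animals allow.

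The counts of Rian per count of Meg3 were 0.970, 1.29 and 1.37 in WTlFlox muscle, against 4.09 and 1.45 in WT muscle. The ratio was set apart mainly by 73A5, which had the highest Rian and the lower Meg3 of the WT pair (exact permutation p = 0.1, again the smallest possible). In progenitors the ratio was 1.29, 0.622 and 0.848 in WTlFlox cells, against 0.987, 0.945 and 1.23 in WT cells (exact permutation p = 0.5). There the libraries of the genotypes lay among each other.

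**Figure D1:**
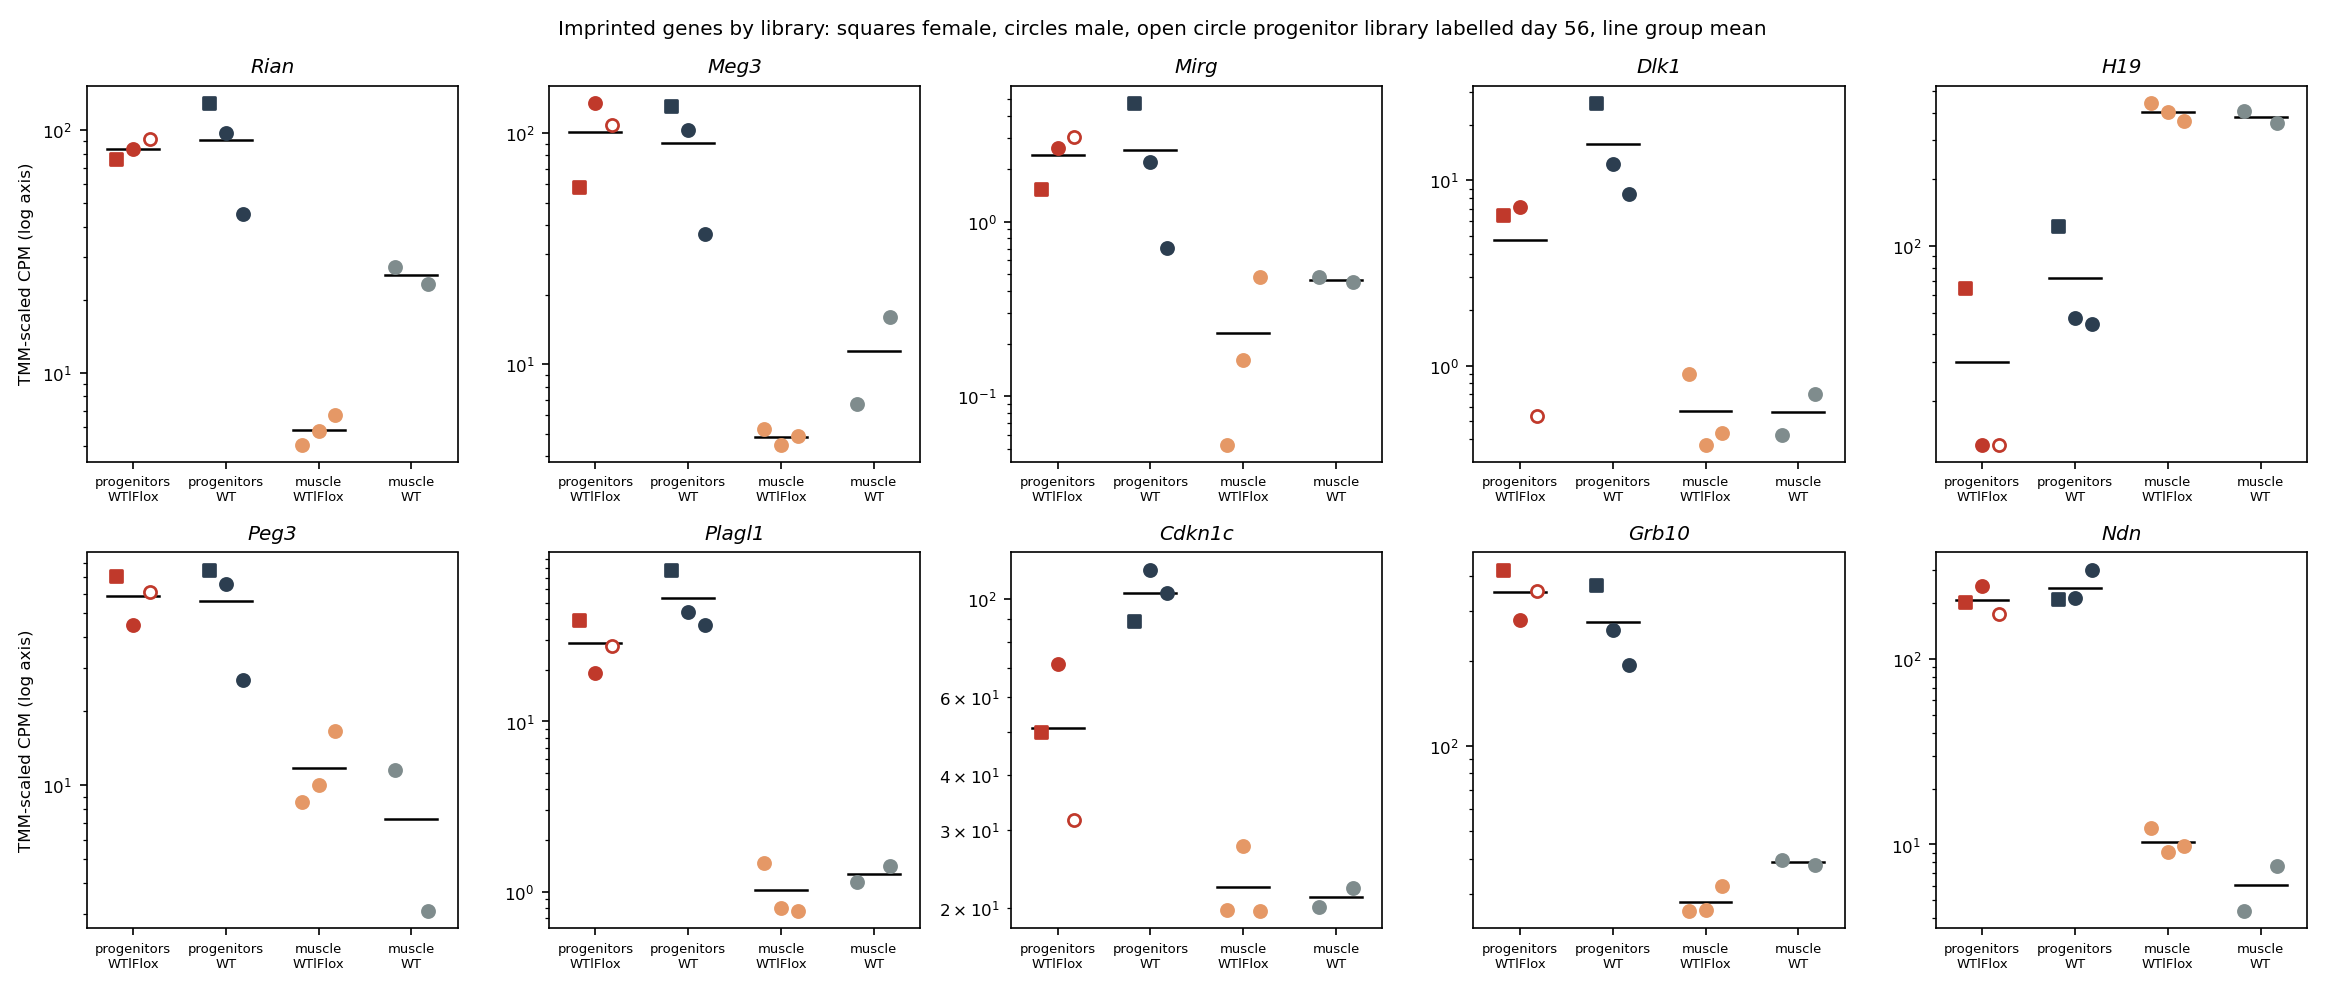
Levels of the 10 genes in each library, as TMM-scaled CPM on log axes, scaled within each material. Squares are females, circles males, the open circle is the progenitor library labelled day 56, and lines are group means; for Rian the 3 WTlFlox lysates, at 5.06 to 6.70 CPM, lie under both WT lysates, while the progenitor groups overlap.

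Dlk1, the protein-coding gene of the same domain, did not share this difference. It was near the limit of detection in muscle, at 17, 7 and 9 counts in WTlFlox and 7 and 11 counts in WT animals, with overlapping groups. Its log2 fold change was 0.01 (SE 0.54). Genes flanking the domain were then examined, 11 of which were tested in muscle. Of these 0 were called by edgeR or DESeq2, with 1 at an unadjusted p under 0.05 (1226 of all 12654 genes), and their median log2 fold change was -0.07, against 0.00 over all genes. Wdr25 (0.05, SE 0.30) on the Dlk1 side and Ppp2r5c (-0.07, SE 0.15) and Dync1h1 (-0.07, SE 0.13) on the Dio3 side are the nearest ones that were tested. Begain, the neighbour next to Dlk1, and Dio3, the deiodinase gene that closes the domain, were too low to test in muscle.

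**Figure D2:**
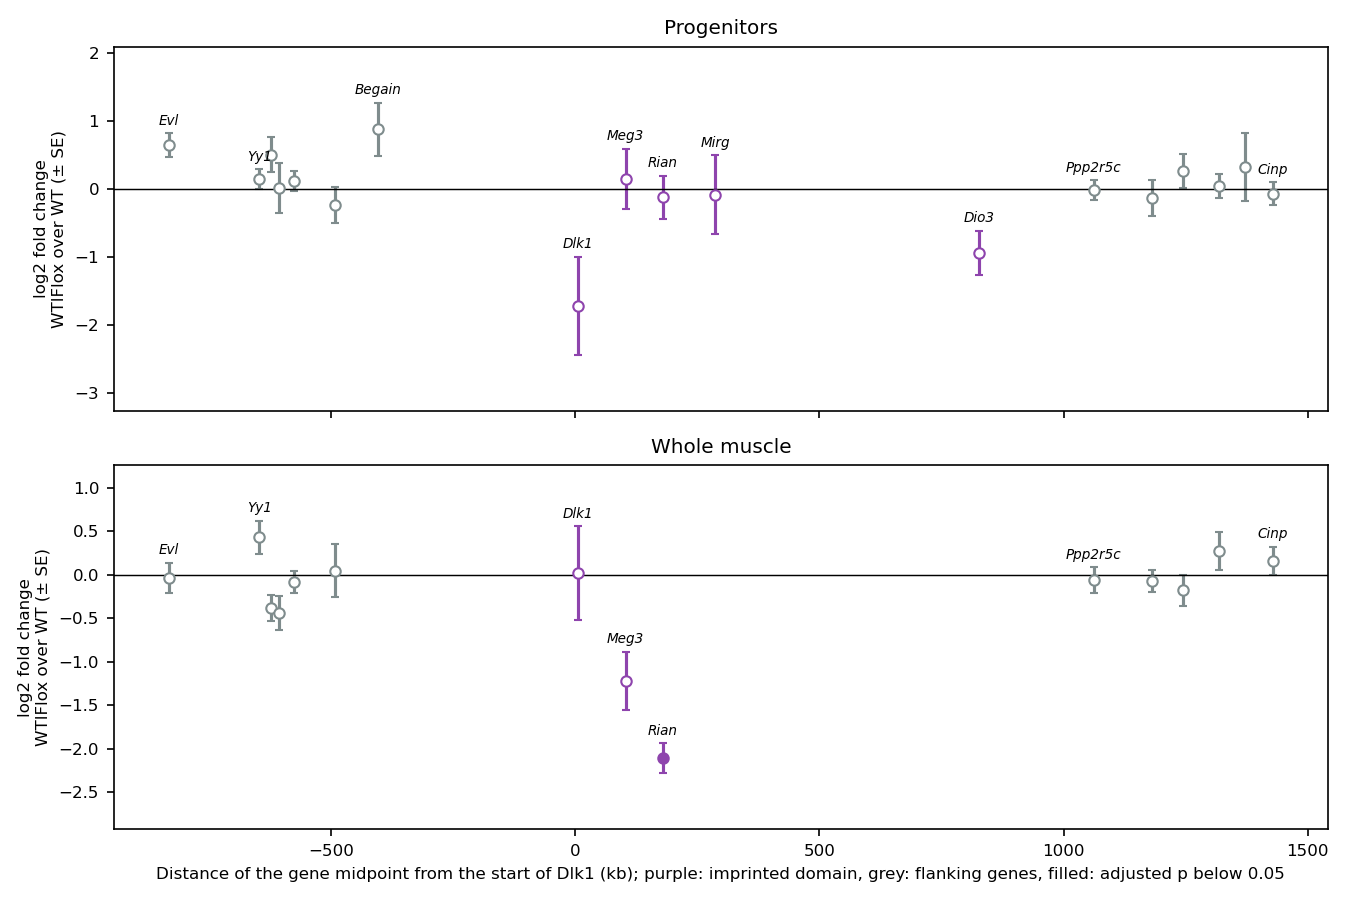
Log2 fold change of WTlFlox over WT with its SE, by distance from the start of Dlk1 in kb, in progenitors (top) and muscle (bottom). Purple points are genes of the imprinted domain and grey points flanking genes; in muscle Rian is the filled point at -2.11, with Meg3 at -1.22 and the tested flanking genes near 0.

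The members elsewhere in the genome did not pass the test in muscle. Grb10, an adaptor that binds insulin and IGF receptors and restrains growth, stood at 26.0, 26.2 and 32.0 CPM in WTlFlox and 39.5 and 38.1 CPM in WT muscle. Ndn, which encodes the MAGE-family protein necdin, stood at 12.2, 9.07 and 9.81 CPM in WTlFlox and 4.37 and 7.69 CPM in WT muscle. For both genes the groups did not overlap, in opposite directions. Their log2 fold changes were -0.47 (SE 0.15, edgeR adjusted p = 0.316) for Grb10 and 0.78 (SE 0.27, adjusted p = 0.358) for Ndn. Counting Rian and Meg3, 3 of the 9 tested members had all WTlFlox libraries under the WT ones and 1 had them above. Such separation was seen in 12.9% of all genes in the lower and 12.4% in the higher direction.

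Peg3, a paternally expressed zinc-finger gene, stood at 8.54, 10.03 and 16.6 CPM in WTlFlox muscle, against 11.6 and 3.08 CPM in WT muscle. The wide gap between the WT animals left its log2 fold change of 0.68 with an SE of 0.51; without 73A5 it was 1.93 (edgeR adjusted p = 0.0466), and without 73A7 it was 0.02. H19 was the most abundant member in muscle, at 442, 405 and 366 CPM in WTlFlox and 405 and 359 CPM in WT animals. Cdkn1c, which encodes the cyclin-dependent kinase inhibitor p57, stood at 19.8, 27.6 and 19.7 CPM in WTlFlox and 20.1 and 22.2 CPM in WT muscle. H19 (0.08, SE 0.15) and Cdkn1c (0.08, SE 0.19) thus overlapped between genotypes. Plagl1, a paternally expressed zinc-finger transcription factor, was low, at 15 to 28 counts in WTlFlox and 19 to 22 counts in WT muscle (-0.33, SE 0.39). The median of the 9 tested members was 0.01, against 0.00 over all genes.

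Whole muscle mixes cell types, and fewer cells of a type cannot be told apart from less RNA per cell. Progenitor markers summed to 1036 to 1133 CPM in WTlFlox and 525 to 880 CPM in WT muscle. The 8 markers of developing, regenerating or denervated fibres summed to 114 to 122 CPM in WTlFlox and 77.5 to 88.5 CPM in WT muscle. Of the 7 tested, 5 had positive and 2 negative log2 fold changes (median 0.08). All WTlFlox libraries lay above the WT ones for 2 of the 7 and under them for 2, as for 12.4% and 12.9% of all genes. Lower sums in WTlFlox muscle were found for muscle stem cell markers (103 to 125 against 145 to 181 CPM in WT), endothelial markers (341 to 349 against 412 to 449 CPM in WT) and, narrowly, glial markers (92.7 to 106 against 107 to 127 CPM in WT). Of the 5 stem cell markers tested, however, 3 had positive and 2 negative log2 fold changes (median 0.10), and DESeq2 called Itga7 lower. Fast myofibre markers overlapped, at 117459 to 175218 CPM in WTlFlox and 173349 to 203409 CPM in WT muscle. Single markers called in muscle by edgeR were Casq2, a calsequestrin of slow and cardiac muscle (-1.10, edgeR adjusted p = 0.0190), and the myogenic factor Myod1 (1.09, adjusted p = 0.0177). DESeq2, which called 267 of 12654 genes, also called Col3a1, Dpp4 and Scx higher and Myh4 and Cspg4 lower. All 10 progenitor markers had positive log2 fold changes. Negative ones numbered 7 of 8 endothelial, 7 of 8 mural, 5 of 6 glial and 8 of 10 fast myofibre markers, and 6269 of all 12654 genes. No progenitor, stem cell, endothelial or glial marker was at 0 in any lysate. The part of these lists in the Rian difference was not tested. The WTlFlox lysates come from animals numbered 71B and the WT lysates from animals numbered 73A, so whatever that number stands for and the genotype cannot be told apart.

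In progenitors no member passed the edgeR test between genotypes. The test called 454 of 12392 genes there, or 3.66%, and 0 of the 10 members, of which 3 had an unadjusted p under 0.05, as 1548 of all genes had, and 1 was called by DESeq2. Their median log2 fold change was -0.17, against 0.00 over all genes, with 7 negative and 3 positive. Rian was not called there. It stood at 75.7, 83.8 and 91.9 CPM in WTlFlox progenitors, against 129, 97.5 and 45.2 CPM in WT progenitors. All WTlFlox values lay inside the range of the WT values, and the log2 fold change was -0.11 (SE 0.32, edgeR adjusted p = 0.989). Meg3 varied as widely, at 58.6, 135 and 108 CPM in WTlFlox and 131, 103 and 36.7 CPM in WT progenitors (0.16, SE 0.44). Mirg stood at 1.54, 2.65 and 3.03 CPM in WTlFlox and 4.77, 2.18 and 0.706 CPM in WT progenitors (-0.08, SE 0.58).

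In these noncoding RNAs the sexes went opposite ways. In the female pair Rian, Meg3 and Mirg were lower in the WTlFlox animal, by log2 differences of -0.77, -1.15 and -1.37. In the males the mean differences were 0.40, 0.96 and 0.89, with both WTlFlox males above both WT males for Meg3 and Mirg. With 1 female a genotype, sex and animal cannot be told apart there, and the difference between sexes was not tested. WT male 73C3 had the lowest value of all 6 libraries for the 3 noncoding RNAs, Peg3 and Grb10.

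Cdkn1c came closest to the threshold in progenitors. It stood at 49.97, 71.3 and 31.6 CPM in WTlFlox cells, against 89.3, 117 and 103 CPM in WT cells. The groups did not overlap, as in 8.17% of all genes in this direction, and the lowest value was that of the day 56 library, 74A3. The log2 fold change was -1.01 (SE 0.26, edgeR adjusted p = 0.0778). It passed with DESeq2 (adjusted p = 0.00581), in edgeR without a filter on low counts (adjusted p = 0.0478) and without WTlFlox animal 72B7 (-1.34, adjusted p = 0.0395).

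Dlk1 stood at 6.53, 7.15 and 0.531 CPM in WTlFlox progenitors (89, 97 and 7 counts), against 26.1, 12.3 and 8.47 CPM in WT progenitors (395, 163 and 144 counts). The groups did not overlap, and the 7 counts belong to the day 56 library. A log2 fold change of -1.72 (SE 0.73) did not pass in edgeR (adjusted p = 0.380). Leaving out 1 library gave -2.14 to -1.13, the smallest difference being that without WT animal 74A2. Within the day 14 libraries alone the genotypes were also apart, with at most 7.15 CPM in WTlFlox and at least 8.47 CPM in WT cells.

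H19 stood at 65.1, 12.7 and 12.7 CPM in WTlFlox progenitors, against 123, 47.4 and 44.5 CPM in WT progenitors. The females had the highest value in each genotype, so the groups overlapped, although WTlFlox was the lower animal in the female pair (log2 difference -0.91) and in the males (mean difference -1.81, no overlap). The log2 fold change was -1.24 (SE 0.69, edgeR adjusted p = 0.601). With sex as a covariate it was -1.52 (SE 0.22) and passed (adjusted p = 0.00259), and so it did without WTlFlox female 74A1 (-2.49, adjusted p = 0.0193). Without WT female 74A2 it was -0.61 and did not pass. H19 was far more abundant in muscle. The fast myofibre markers summed to 20.7 to 26.8 CPM in WTlFlox and 20.9 to 136 CPM in WT progenitors. All 8 tested markers of that list had negative log2 fold changes (median -1.76), with 8 at an unadjusted p under 0.05, 0 called by edgeR and 4 called by DESeq2 (Tnni2, Mylpf, Atp2a1 and Pvalb). Over all 12392 genes 1548 were under 0.05 in edgeR, and DESeq2 called 755. The highest sums were those of WT animals 73C3 and 74A2. The part of these markers in the H19 values was not tested.

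Plagl1 had the same layout, at 39.7, 19.4 and 27.9 CPM in WTlFlox and 78.2, 44.2 and 37.1 CPM in WT progenitors. WTlFlox was lower in the female pair (-0.97) and in the males (-0.79, no overlap). The log2 fold change of -0.87 (SE 0.32, edgeR adjusted p = 0.257) became -0.85 (SE 0.19) with sex as a covariate and then passed (adjusted p = 0.0337). Dlk1 and Cdkn1c did not pass in that fit. The remaining members showed smaller differences. Peg3 stood at 71.2, 44.7 and 61.0 CPM in WTlFlox and 75.4, 65.6 and 26.8 CPM in WT progenitors (0.08, SE 0.34). Grb10 stood at 421, 279 and 355 CPM in WTlFlox and 372, 257 and 194 CPM in WT progenitors (0.36, SE 0.26). Ndn stood at 202, 246 and 174 CPM in WTlFlox and 209, 213 and 303 CPM in WT progenitors (-0.22, SE 0.21). For these genes the groups overlapped.

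**Figure D3:**
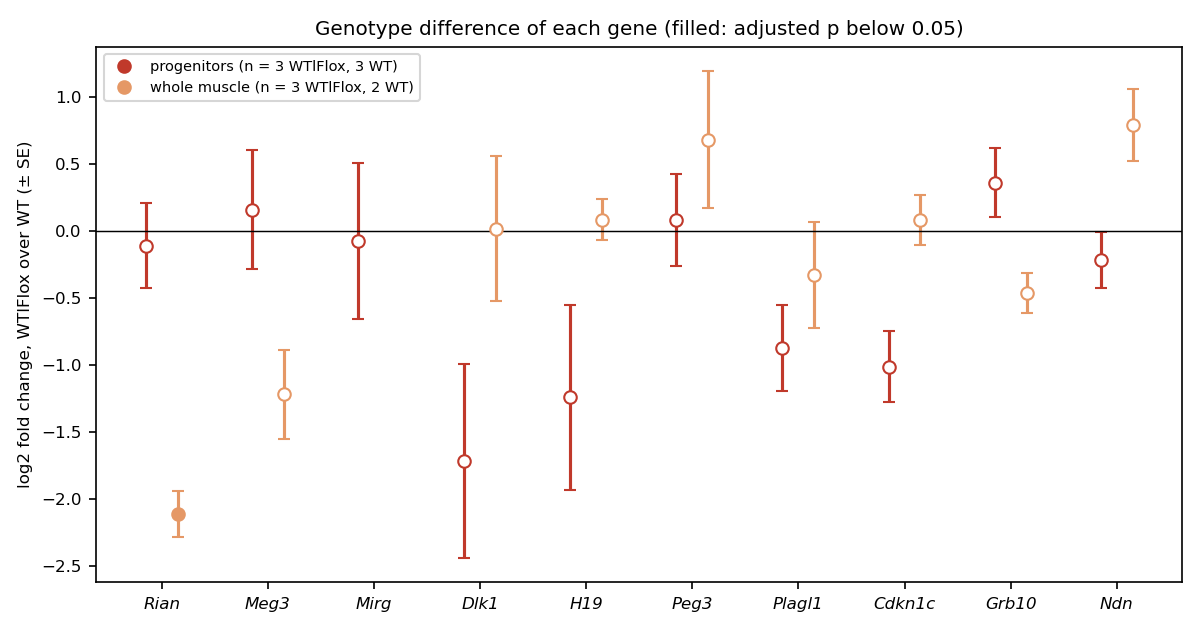
Log2 fold change of WTlFlox over WT with its SE for each gene, progenitors in red (3 against 3 libraries) and muscle in orange (3 against 2). Only the muscle value of Rian is filled, for an adjusted p under 0.05 in edgeR; Mirg has no muscle value, and the progenitor values of Dlk1, H19, Cdkn1c and Plagl1 lie between -1.72 and -0.87.

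Other imprinted genes were counted for comparison. In progenitors 17 of 26 listed paternally expressed genes were tested, of which 0 were higher and 2 lower, where 2.34% and 1.32% of all genes were. Igf2, the growth factor gene next to H19, stood at 24.1, 20.7 and 15.3 CPM in WTlFlox cells, against 91.3, 34.8 and 51.8 CPM in WT cells. Its log2 fold change was -1.56 (SE 0.33, edgeR adjusted p = 0.0326). Slc38a4, an amino acid transporter gene, stood at 3.30, 1.84 and 2.12 CPM in WTlFlox cells, against 7.54, 6.18 and 6.35 CPM in WT cells (-1.46, SE 0.28, adjusted p = 0.0193). Both genes were fully separated between genotypes, in the female pair and in the males alike. Their calls depended on which animals were included. Igf2 lost its call in edgeR without 74A1, 72B7, 74A3 or 73C3 (adjusted p up to 0.149) and without a filter on low counts (adjusted p = 0.0517), and Slc38a4 without 72B7, 74A3, 72B8 or 74A2 (adjusted p up to 0.0971). Both kept their direction in each of these fits.

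Of 32 listed maternally expressed genes 24 were tested in progenitors and 0 called by edgeR, with 3 at an unadjusted p under 0.05 and 1, Igf2r, called lower by DESeq2. Over all 12392 genes 1548 were under 0.05 in edgeR, and DESeq2 called 755. The medians were -0.04 for the paternally and -0.09 for the maternally expressed genes. In muscle 0 of 14 paternally and 0 of 24 maternally expressed genes were called by edgeR, with 5 and 2 at an unadjusted p under 0.05. DESeq2 called 1 of each, Slc38a4 lower and Dcn higher. Over all 12654 genes in muscle 1226 were under 0.05 in edgeR, and DESeq2 called 267. Igf2 stood at 14.9, 13.8 and 16.4 CPM in WTlFlox and 21.5 and 20.1 CPM in WT muscle (-0.47, SE 0.14, adjusted p = 0.292). Slc38a4 stood at 23.2, 29.8 and 24.5 CPM in WTlFlox and 45.6 and 41.8 CPM in WT muscle (-0.76, SE 0.15, adjusted p = 0.102, or 0.00720 with DESeq2). Dio3 averaged 3.77 ± 1.59 CPM in WTlFlox and 7.21 ± 0.877 CPM in WT progenitors (SD, n = 3 each; -0.93, SE 0.32, adjusted p = 0.210). Flanking genes of its domain gave 0 calls of 13 in progenitors, with 2 at an unadjusted p under 0.05 and 1, Evl, called higher by DESeq2, Begain being at 0.88 (SE 0.39) and Wdr25 at -0.23 (SE 0.27).

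**Figure D4:**
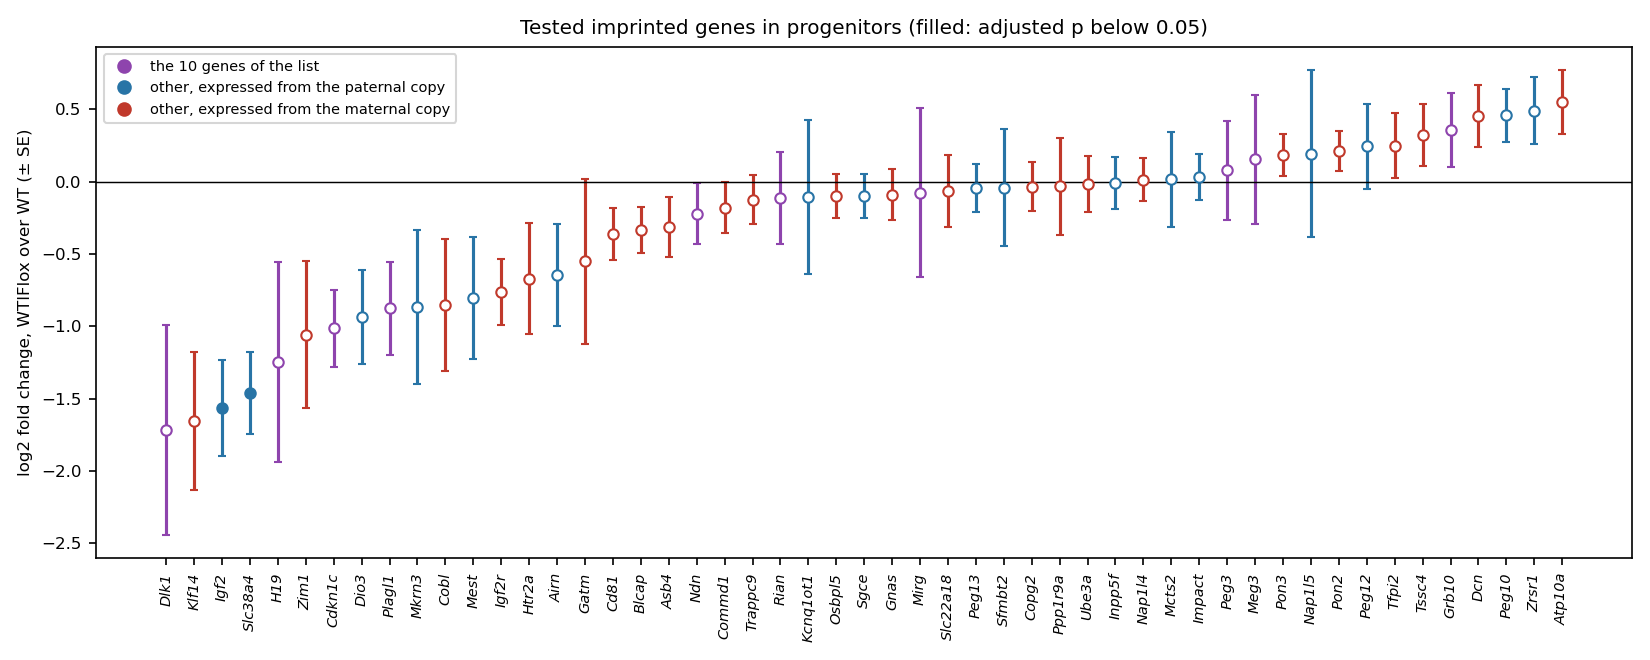
Log2 fold change of WTlFlox over WT with its SE for every tested imprinted gene in progenitors, ordered by value. Purple marks the 10 genes of the list, blue other paternally and red other maternally expressed genes; Igf2 (-1.56) and Slc38a4 (-1.46) are the filled points, past an adjusted p of 0.05 in edgeR.

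Genes that act on or with the members were counted as well. Imprint establishment and maintenance, which includes DNA methyltransferases and zinc-finger proteins, gave 0 edgeR calls of 13 in progenitors and 0 of 11 in muscle, with 0 at an unadjusted p under 0.05 in each. MEF2 transcription factors gave 0 of 3 in each material, with 0 in progenitors and 1 in muscle at an unadjusted p under 0.05. A list of 10 genes held insulin and IGF receptors, their Irs substrates, the Igf2bp and Lin28 RNA-binding proteins and Hmga2. Only 5 of the 10 were tested in each material, the rest being too low. EdgeR called 0 of 5 in each, with 3 at an unadjusted p under 0.05 in each. Over all genes 1548 of 12392 in progenitors and 1226 of 12654 in muscle were under 0.05. The medians of this list were -0.39 in progenitors and -0.36 in muscle. DESeq2 called 0 genes of these lists in either material. Of 12 Notch receptors, ligands and targets, the list nearest to Dlk1, 1 was lower in WTlFlox progenitors, where 1.32% of all genes were. This was Heyl, a transcriptional repressor induced by Notch, at 10.6 ± 1.79 CPM in WTlFlox and 25.3 ± 9.28 CPM in WT cells (SD, n = 3 each; -1.26, SE 0.28, edgeR adjusted p = 0.0371). It lost its call without 5 of the 6 libraries in turn (adjusted p up to 0.176), all but 72B8. In muscle 0 of 12 were called by edgeR or DESeq2, with 0 at an unadjusted p under 0.05.

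Cell type markers other than the myofibre list, given with H19, also differed between the sorted groups. Progenitor markers summed to 47377 to 56418 CPM in WTlFlox and 32439 to 41274 CPM in WT progenitors, and the collagen gene Col1a1 was called higher (1.16). Of these 10 markers 6 had positive and 4 negative log2 fold changes (median 0.15). Tenocyte markers summed to 1688 to 2152 CPM in WTlFlox and 1069 to 1529 CPM in WT cells, with Mkx (1.28) and Thbs4 (0.90) called. The list was split, with 2 positive and 3 negative log2 fold changes of 5 (median -0.43), and DESeq2 also called Fmod lower. Endothelial markers summed to 463 to 493 CPM in WTlFlox and 571 to 687 CPM in WT cells, with Kdr called higher (4.23) and Tek lower (-1.31). Of the 8 endothelial markers 2 had positive and 6 negative log2 fold changes (median -0.22). Cspg4, of the mural list, was lower (-2.24). That list was split, with 4 positive and 4 negative log2 fold changes of 8 (median 0.004). Muscle stem cell markers summed to 22.7 to 32.4 CPM in WTlFlox and 34.7 to 45.4 CPM in WT cells, with up to 4 of 6 at 0 in both. The part of these lists in the values of the members was not tested.

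The genotype differences were compared between materials in a joint edgeR fit of the 11 libraries. The difference in progenitors minus that in muscle was 1.97 for Rian on the log2 scale (SE 0.40, adjusted p = 0.0375). Rian was the member called, 1 of 10, where the fit called 106 of 13781 genes, or 0.769%. That call was lost in 11 of 15 alternatives, though the direction held in all of them, with values of 1.66 to 2.30. The adjusted p was 0.0544 with upper-quartile and 0.127 with total-count scaling. Leaving out 1 library ended the call for 74A1, 72B7, 74A3, 72B8 and each of the 5 lysates (adjusted p up to 0.132). Meg3 had the next largest positive difference (1.34, SE 0.63, adjusted p = 0.598). Cdkn1c (-1.14, SE 0.37, adjusted p = 0.278) and Ndn (-1.07, SE 0.37, adjusted p = 0.320) differed the other way without passing. Material, RNA isolation kit and, but for 74A3, day after tamoxifen change together, so they cannot be told apart in this fit. The mix of sexes differs as well, as each progenitor group held 1 female and all lysates came from males.

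Between materials the members differed strongly. In WTlFlox mice 10 of 10 members were called, where 78.8% of all genes were, and in WT mice 10 of 10, where 76.1% were. In both genotypes 9 were higher in progenitors and H19 was higher in muscle. Over all genes 39.9% were higher and 38.9% lower in progenitors of WTlFlox mice, and 38.6% and 37.5% in those of WT mice. The members' median log2 difference was 2.86 in WTlFlox and 2.29 in WT mice, against 0.05 and 0.09 over all genes. With total-count scaling the median of all genes moved to 0.58 in WTlFlox and 0.75 in WT mice, and each member kept its direction. All 10 listed genes of the response to tissue dissociation, among them Fos and Jun, were called higher in progenitors. Their median log2 difference was 5.80 in WTlFlox and 6.01 in WT mice. The part of dissociation in the values of the members was not tested.

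Plagl1 and Ndn had the largest differences in WT mice, while in WTlFlox mice H19, higher in muscle, and Plagl1 had. Plagl1 averaged 23.6 ± 8.30 joint CPM in WTlFlox progenitors (SD, n = 3) and 1.27 ± 0.506 in WTlFlox muscle (n = 3), a log2 fold change of 4.21 (SE 0.37), and that in WT mice was 4.80 (SE 0.44). Ndn averaged 169 ± 30.8 joint CPM in WTlFlox progenitors and 13.01 ± 2.10 in WTlFlox muscle (n = 3 each). Its difference was 3.70 (SE 0.26) on the log2 scale, and 4.77 (SE 0.33) in WT mice. Joint CPM here is scaled over all 11 libraries. Rian was higher in progenitors by 3.22 (SE 0.29) in WTlFlox and 1.25 (SE 0.31) in WT mice. Meg3 was higher by 3.75 (SE 0.46) in WTlFlox and 2.40 (SE 0.51) in WT mice, Mirg by 2.70 (SE 0.71) and 1.85 (SE 0.76), and Grb10 by 3.03 (SE 0.23) and 2.24 (SE 0.26), in the same order of genotypes. Meg3 in WT mice was 3.13 without 73A7, and Mirg in WTlFlox mice was 3.78 without 71B5. Mirg in WT mice lost its call without 74A2 (1.03), 73A5 or 73A7 (edgeR adjusted p up to 0.208).

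Dlk1 was higher in progenitors by 2.44 (SE 0.75) in WTlFlox and 4.21 (SE 0.90) in WT mice, and its WTlFlox libraries overlapped between materials through 74A3. Peg3 was higher by 1.71 (SE 0.43) in WTlFlox and 2.33 (SE 0.53) in WT mice, the WT value being 3.61 without 73A5 and 1.66 without 73A7. Cdkn1c was higher by 0.57 (SE 0.25, edgeR adjusted p = 0.0473) in WTlFlox and 1.71 (SE 0.29) in WT mice. The WTlFlox value of Cdkn1c was called in 6 of 15 alternatives and was 0.25 without 72B7. H19 ran the other way, at -4.36 (SE 0.64) in WTlFlox and -3.00 (SE 0.63) in WT mice, the WTlFlox value being -5.60 without 74A1. It averaged 24.6 ± 24.7 joint CPM in WTlFlox progenitors and 507 ± 48.9 in WTlFlox muscle, against 59.7 ± 35.6 in WT progenitors and 477 ± 45.8 in WT muscle.

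**Figure D5:**
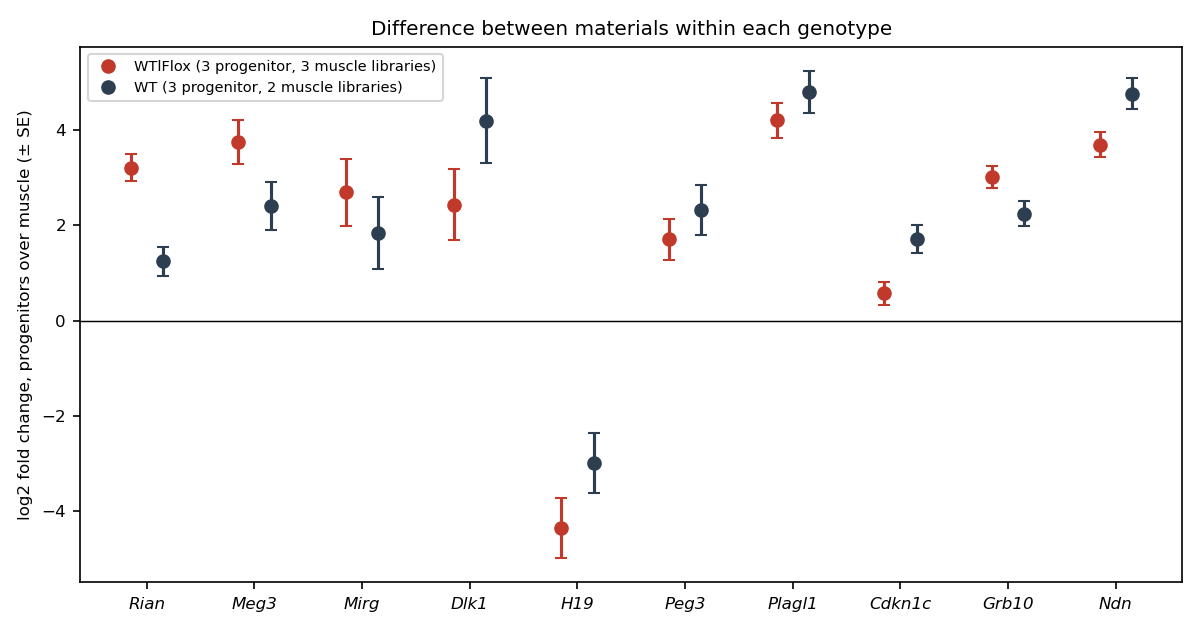
Log2 fold change of progenitors over muscle with its SE for each gene, WTlFlox in red and WT in blue, from a joint fit of 11 libraries. H19 lies under 0 in both genotypes (-4.36 and -3.00) and the other 9 genes above it, Rian at 3.22 in WTlFlox and 1.25 in WT mice.

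Levels of different genes are compared per kb of exon (RPKM over the joint scaling). In WTlFlox progenitors the order was Ndn (45.9 ± 8.34), Grb10 (31.6 ± 6.33), Cdkn1c (20.4 ± 8.08), H19 (10.02 ± 10.03), Meg3 (4.54 ± 1.75), Rian (3.75 ± 0.348), Peg3 (3.61 ± 0.809), Plagl1 (3.02 ± 1.06), Dlk1 (0.685 ± 0.530) and Mirg (0.269 ± 0.0861). Means from H19 down to Plagl1 lie within 1 SD of their neighbours. In WTlFlox muscle H19 led (206 ± 19.9), followed by Cdkn1c (13.8 ± 2.80), Grb10 (3.88 ± 0.464) and Ndn (3.52 ± 0.570), the last pair within 1 SD. Peg3 (1.10 ± 0.402), Rian (0.402 ± 0.0558), Meg3 (0.337 ± 0.0262), Plagl1 (0.163 ± 0.0647), Dlk1 (0.126 ± 0.0639) and Mirg (0.0396 ± 0.0380) came after, with Plagl1 and Dlk1 within 1 SD. In WT muscle Rian was at 1.73 ± 0.221 RPKM, above Meg3 at 0.782 ± 0.447 and Peg3 at 0.688 ± 0.568 (SD, n = 2).

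The genes whose levels most resembled those of Rian were found from log2 CPM centred within each material, over 11 libraries and 10832 genes. Usp28, a deubiquitinase (Pearson's r = 0.96), Prkd2, a protein kinase D (0.93), Smox, spermine oxidase (0.91), Flnc, the muscle actin crosslinker filamin C (0.91), and Cpne2, a copine (0.91), came first. In muscle Smox was called lower in WTlFlox mice (-1.73, SE 0.15, edgeR adjusted p = 0.00546), as was Flnc (-1.48, SE 0.18, adjusted p = 0.0161). Usp28 stood at -0.90 (SE 0.15, adjusted p = 0.0545), Cpne2 at -0.82 (SE 0.18, adjusted p = 0.131) and Prkd2 at -0.42 (SE 0.16, adjusted p = 0.443). Among the members r with Rian was 0.73 for Meg3, 0.69 for Grb10 and -0.83 for Ndn, and H19 and Plagl1 stood at 0.87 with each other. The 11 points share genotype and sex, so these values are a description.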

How the data were processed

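The deposited values are raw counts per gene symbol, in 1 table for sorted progenitors and 1 for lysates. Per the labels' protocols, libraries were stranded poly(A) mRNA, read as paired ends on a NextSeq 500. Build mm10 and the tools STAR, Bowtie and bcl2fastq 2.20 are named in the submitters' processing notes. How reads were assigned to genes, and whether by strand, is not stated in those notes or labels. The 10 genes and the other lists were chosen with earlier results of these data known. Groups follow the labels, and each library is a separate animal.

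Genotypes were compared within a material in edgeR 4.0.16, run in R 4.3.3, using filterByExpr (minimum count 10), TMM scaling, robust quasi-likelihood F test, two-sided, Benjamini-Hochberg adjustment over all genes tested, threshold 0.05. A joint fit of the 11 libraries with 4 groups gave the interaction and the differences between materials. Fold changes are log2 of WTlFlox over WT, or of progenitors over muscle. SE is that implied by the F statistic. Levels are TMM-scaled CPM; RPKM uses the exon length of GENCODE M21 (GRCm38). Ratios and sums were compared by exact permutation. Alternatives were DESeq2 1.42.0, upper-quartile or total-count scaling, no filter, sex as a covariate, leaving out each library, and, added after seeing the data, a replicate block. The test was checked on simulated counts. Named were all members, called genes of the other lists, the nearest flanking genes and the 5 genes most like Rian by correlation (log2 of CPM + 0.5, mean CPM of at least 1).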

Additional observations from a re-analysis of the deposited data

Results flagged for a closer look

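The genotype difference of Rian differed between materials. The log2 fold change of WTlFlox over WT was -0.11 in progenitors and -2.11 in muscle, and the difference between them, tested as an interaction in a joint edgeR fit, was 1.97 (SE 0.40, adjusted p = 0.0375; 0.000785 to 0.132 over 15 alternatives). All 3 WTlFlox lysates lay under both WT lysates, while the progenitor libraries overlapped. No other member was called in this test. The materials also differ in RNA isolation kit and, but for 1 library, in day after tamoxifen. All lysates came from males, while each progenitor group held 1 female.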

How the results depend on the processing

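The direction of Rian in muscle held in all 10 alternatives (-2.23 to -1.98) and its call in 9. With DESeq2 the calls were 755 in progenitors (454 with edgeR), 267 in muscle (92) and 272 for the interaction (106). In muscle, total-count scaling, which moved the median of all genes to 0.13, gave 54 calls, and no filter 139. Members called in progenitors (0 with edgeR) numbered 1 with DESeq2, 1 without the filter and 2 with sex as a covariate. In muscle (1 with edgeR) 2 were called with DESeq2. Leaving out each library in turn gave 262 to 483 calls and 0 to 1 members in progenitors, 0 to 239 calls and 0 to 3 members in muscle, and 54 to 114 interaction calls.

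Signs turned for members near 0. Without single libraries the progenitor log2 fold change ran from -0.44 to 0.23 for Rian, -0.22 to 0.52 for Meg3, -0.54 to 0.76 for Mirg and -0.26 to 0.35 for Peg3. In muscle it ran from -0.32 to 0.42 for Dlk1, -0.095 to 0.16 for Cdkn1c and -0.0068 to 0.17 for H19, and the interaction of Peg3 from -1.90 to 0.042. Mirg in progenitors was 0.11 with sex as a covariate. For progenitors over muscle in WTlFlox mice, Heyl was 0.10 with upper-quartile and 0.49 with total-count scaling and -0.18 to 0.11 without single libraries, and Igf2 was 0.33 with total-count scaling. The cause was not tested.

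The deposited tables number the replicates, and whether these numbers pair the samples could not be settled. Of the same-numbered progenitors, 74A1 with 74A2 and 72B7 with 72B8 share the start of the animal number, and 74A3 with 73C3 do not. What that start stands for is not stated. Same-numbered progenitors, each pair of the same sex, correlated at 0.28, 0.012 and -0.17 in their deviations from the group means. Differently numbered ones ran from -0.32 to 0.32. Same-numbered lysates stood at -0.034 and -0.53. Deviations from a group mean are tied to each other, and those of the 2 WT lysates are mirror images, so the lysate values cannot show pairing. With a replicate block, chosen after seeing the data, 3 members were called in progenitors, namely Dlk1 (-1.95), H19 (-1.53) and Cdkn1c (-1.08). Rian was then 0.0019 and Mirg 0.16 in progenitors, and in muscle 178 genes were called and Dlk1 was -0.46. Precision is limited by the 2 animals of WT muscle and by few counts for Mirg, Dlk1 and Plagl1 in muscle.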
